A study of Homo sapiens with 36 samples.

Results

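The heat shock proteins and cochaperones measured here are 37 listed genes out of the 28516 gene symbols in the count table, and all 37 were found in it by symbol. The genes were chosen by name for their function. The list holds the heat shock factors HSF1 and HSF2, HSP70 and HSP110 family members, both cytosolic HSP90 genes, small heat shock proteins, J-domain proteins, BAG proteins and HSP90 cochaperones. The list is headed as cytosolic, but HSPA9, HSPD1 and HSPE1 encode mitochondrial chaperones, HSPA13 a microsomal HSP70 relative, and HSPB11 (current symbol IFT25) a protein of intraflagellar transport. Of the 37 genes, 36 had at least 10 counts summed over all libraries and were tested, and 30 averaged 1 CPM or more (CPM, the counts of a gene scaled to a common library size). HSPA6, the remaining gene, had 5 counts in total.

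RNA-seq was performed on human neural stem cells (hNSC), one commercial culture, in 36 libraries harvested 48 h after lentiviral transduction. Each of 6 conditions had 6 libraries. MEIS1-OE and MEIS2-OE received CRISPR-activation, in which 3 viruses supplied a guide RNA carrying MS2 hairpins, a dCas9-VP64 that does not cut, and the activator MPH. MEIS1-KO and MEIS2-KO received a Cas9 virus with 2 guides against the coding sequence of MEIS1 or MEIS2, mixed. ctrl-OE and ctrl-KO received the same systems with a non-targeting guide, so every library came from transduced cells and none from cells without virus. MPH is a fusion of the MS2 coat protein with activation domains of p65 (the RELA product) and of HSF1, and it was delivered to all 18 libraries of the OE system. The labels do not say whether libraries of a condition came from separate cultures, and the p-values measure only the spread between these libraries.

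The totals per library ranged from 15429985 to 22940493 counts, with a median of 20324720. The median MEIS1 level was 315 CPM in MEIS1-OE against 18 CPM in ctrl-OE, and 8.88 CPM in MEIS1-KO against 25.6 CPM in ctrl-KO. For MEIS2 the medians were 824 CPM in MEIS2-OE, 22.8 CPM in ctrl-OE, 12.2 CPM in MEIS2-KO and 26.4 CPM in ctrl-KO. Of 10 neural stem cell markers, 9 averaged 1 CPM or more, among them VIM and NES, and only HES5 was below. Of the neuron markers, DCX, STMN2 and RBFOX3 were below 1 CPM and ELAVL4 had no count, whereas MAP2 and SYT1 were present. GFAP, OLIG2, POU5F1 and PTPRC were all below 1 CPM. However, S100B of the astrocyte markers and CDH5 and PECAM1 of the endothelial and blood cell markers were above 1 CPM. Of the pluripotency list LIN28A and DPPA4 were present. The level of a single marker does not show that a lineage was absent. No library was a repeat of another: the closest pair within a condition differed by 2.74 times the counting noise (chi-square per degree of freedom). 1 library, MEIS1-OE replicate 3, stood apart in base composition: its GC index (defined with the last results) was -0.493, against 0.206 to 0.39 in the other 5 of its condition.

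Heat shock proteins are molecular chaperones that bind unfolded or newly made proteins. HSP70 proteins act in cycles of ATP hydrolysis that J-domain proteins start and that nucleotide exchange factors (HSP110 and BAG proteins) end, and HSP90 receives a subset of these clients with the help of further cochaperones. Heat shock factors, HSF1 above all, bind heat shock elements, inverted repeats of the pentamer GAANN, and raise the transcription of many of these genes when proteins unfold. Neural stem cells and other dividing cells also express constitutive members such as HSPA8 and HSP90AB1 at high levels without any heat stress.

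RefSeq promoters were available for 31 of the 37 genes (RefSeq table on GRCh38.p14), and HSF1, HSPB2, CRYAB, FKBP4, STUB1 and HSPA14 were not matched. Each promoter was a short window around a start, reaching further upstream than downstream, and all starts of a gene were pooled. Elements outside these windows were not searched. Heat shock elements of 3 units (GAA, TTC and GAA, or TTC, GAA and TTC, each joined to the next by NN, either strand) were found in 8 of the 31 genes (25.8%), against 166 of all 27305 genes with a promoter (0.61%). Elements of 2 units (GAANNTTC or TTCNNGAA, either strand, including the 3-unit ones) were found in 19 of 31 (61.3%) against 16.18% of all genes. The letters TGACAG, a motif bound by MEIS proteins, were found on either strand in 4 of 31 (12.9%), AHSA1, DNAJB1, HSPA4L and HSPB8, against 18.6% of all genes. These shares describe the sequence only. The stretches below are shown because CHORDC1, HSPA8 and DNAJB1, which differed by replicate number, and the HSP90 paralogs, of which HSP90AB1 differed between the vector systems, carry such elements, whereas HSPA1A and HSPA1B show how alike these gene copies are upstream. Of the other genes that differed by replicate number, HSPH1 held neither element in its window and HSPA14 was not matched. For CHORDC1, HSPA8, HSP90AB1, HSP90AA1 and DNAJB1 the start used lies inside the annotated gene, downstream of its outermost start. All read 5′ to 3′ on the gene's strand, with bases of 2-unit and 3-unit elements in capitals. For CHORDC1 and HSPA8 the 30 bases run from 63 to 34 bases before the start, at chr11:89956251-89956280 and chr11:122932878-122932907 (both minus strand) of GRCh37, and for HSP90AB1 from 120 to 91 bases before it, at chr6:44215560-44215589 (plus strand). The other 4 are the 120 bases before the start, at chr14:102553382-102553501 (HSP90AA1, minus strand), chr19:14629210-14629329 (DNAJB1, minus strand), chr6:31783200-31783319 (HSPA1A, plus strand) and chr6:31795395-31795514 (HSPA1B, plus strand).
CHORDC1: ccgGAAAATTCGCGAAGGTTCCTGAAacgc
HSPA8: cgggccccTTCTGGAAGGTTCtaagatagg
HSP90AB1: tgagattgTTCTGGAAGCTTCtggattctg
HSP90AA1: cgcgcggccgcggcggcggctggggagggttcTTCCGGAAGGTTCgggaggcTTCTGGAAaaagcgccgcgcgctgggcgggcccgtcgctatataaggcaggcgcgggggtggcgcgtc
DNAJB1: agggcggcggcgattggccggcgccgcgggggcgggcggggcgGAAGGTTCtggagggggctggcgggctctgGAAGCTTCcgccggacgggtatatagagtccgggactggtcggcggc
HSPA1A: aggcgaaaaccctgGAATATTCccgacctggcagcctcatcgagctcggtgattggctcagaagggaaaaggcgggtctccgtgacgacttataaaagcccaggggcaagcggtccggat
HSPA1B: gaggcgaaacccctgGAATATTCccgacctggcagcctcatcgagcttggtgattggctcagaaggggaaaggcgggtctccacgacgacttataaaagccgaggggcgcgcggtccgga

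The listed genes together took between 0.844% and 1.10% of the counts of a library. Per length of transcript, HSP90AB1 had the highest level in ctrl-KO, with a median of 846 CPM per kb (827 to 951). HSP90AA1 followed with 703 (670 to 752) and HSPA8, the constitutive HSC70, with 670 CPM per kb (593 to 719). The ranges of HSP90AA1 and HSPA8 overlapped, so that their order was not resolved, whereas HSP90AB1 lay above both in every ctrl-KO library. The mitochondrial chaperonin HSPD1 had 318 CPM per kb and its partner HSPE1 had 192, with no overlap. DNAJA1, a J-domain partner of HSP70 with 176.5, and STIP1, which links HSP70 to HSP90, with 174 CPM per kb, overlapped in range, so that their order was not resolved either. In ctrl-OE the HSP90 genes overlapped, with medians of 736 (666 to 779) for HSP90AA1 and 723 CPM per kb (668 to 765) for HSP90AB1, and their order was not resolved.

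7 genes were at or below the limit of what this depth can compare. HSPA6, a strictly inducible HSP70, had 0 counts in all 18 libraries of the KO system and at most 1 in a library of the OE system. The total counts over the 36 libraries were 17 for HSPA1A, 32 for HSPB2, 84 for HSPB8, 85 for HSPA2, 111 for CRYAB and 359 for HSPA1L. HSPA1A and HSPA1B are stress-inducible HSP70 genes that lie close together (chr6:31783320-31785723 and chr6:31795515-31798031 of GRCh37, plus strand). Of the 100-base windows of their transcripts, 72.4% for HSPA1A and 68.9% for HSPA1B occurred a second time in the genome, in the other copy, so reads from either could be counted or lost according to how multiple matches were treated. HSPA1B had medians between 14.7 and 28.3 CPM, and its values are uncertain in this respect. HSPA6 (33.9%), DNAJB6 (17.7%), HSPD1 (12.3%), HSPE1 (11.6%) and HSPB1 (6.0%) also shared windows with other places. HSPB2 and HSPE1 overlap the readthrough genes HSPB2-C11orf52 and HSPE1-MOB4 on the same strand.

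**Figure D1:**
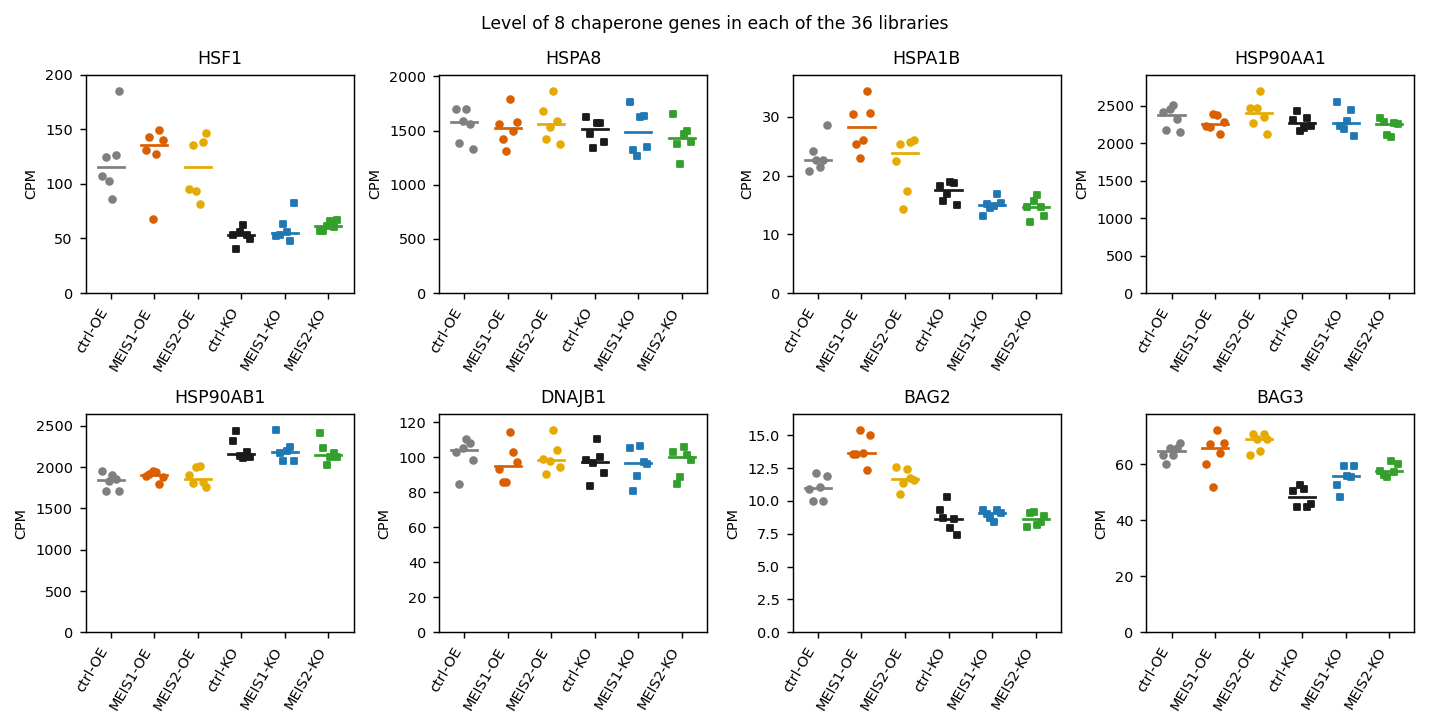
Level in CPM (vertical axis, linear from 0) of 8 genes in the 36 libraries, by condition (horizontal axis; circles, OE system; squares, KO system), with 1 point per library and a line at the median of 6. HSF1, HSPA1B, BAG2 and BAG3 had higher medians in each OE condition than in each KO condition, with some overlapping libraries. HSP90AB1 was lower in every OE library than in every KO library, and HSPA8, HSP90AA1 and DNAJB1 overlapped throughout.

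The question of the MEIS comparisons is whether raising or removing MEIS1 or MEIS2, TALE homeodomain transcription factors, moved chaperone transcripts. MEIS1-OE against ctrl-OE had 2 of 36 genes past an adjusted p of 0.05 (edgeR's quasi-likelihood test, adjusted by Benjamini-Hochberg over the 19689 genes tested), both higher, where 9.10% of all genes tested were called and 5.52% were called higher. BAG2, a nucleotide exchange factor of HSP70 and inhibitor of the ubiquitin ligase STUB1 (chr6:57037124-57054631 of GRCh37, plus strand), ranged from 12.3 to 15.4 CPM (median 13.6) in MEIS1-OE, and from 9.98 to 12.1 CPM (median 11) in ctrl-OE. All 6 MEIS1-OE libraries lay above all 6 ctrl-OE libraries. The log2 fold change of BAG2 was 0.34 ± 0.07 (SE, n = 6 and 6, edgeR adjusted p = 0.000432). HSPB8, a small heat shock protein that works with BAG3 in selective autophagy, had 3 to 15 counts per library in MEIS1-OE, 52 in all, and 1 to 3 in ctrl-OE, 10 in all. Its medians were 0.401 and 0.0638 CPM, and the groups did not overlap. The log2 fold change of HSPB8 was 2.39 ± 0.49 (edgeR adjusted p = 6e-04), and 1.57 with a prior count of 2. Groups without overlap were found for these 2 genes among the 36, and for 4.38% of all genes. In bulk RNA, fewer cells expressing a gene and less RNA per cell cannot be told apart. The median log2 fold change over the 36 genes was -0.00299, beside -0.00131 over all genes.

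MEIS2-OE against ctrl-OE had no gene of the 36 past the threshold in edgeR's test and none by DESeq2, with 1.35% of all genes called. At an unadjusted p under 0.05 there were 2, HSPA2 and DNAJB6. Counts at an unadjusted p or by DESeq2 are given here and below without the share of all genes at the same setting. They cannot be read against edgeR's shares at the adjusted p. DNAJB6, a J-domain protein that holds aggregation-prone clients, ranged from 108 to 128 CPM in MEIS2-OE and from 107 to 116 CPM in ctrl-OE, which overlapped, with a log2 fold change of 0.10 ± 0.04 (edgeR adjusted p = 0.477). Over the 30 genes at 1 CPM or more, 24 had a log2 fold change above the median of all genes, and the median was 0.039 beside -0.0093 for all genes. Their values lay between -0.09 and 0.30, and 28 of 30 were within 0.2 of 0.

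MEIS1-KO against ctrl-KO also had none of the 36 past the threshold in edgeR's test, where edgeR called 1.46% of all genes. There were 5 at an unadjusted p under 0.05 and 1 by DESeq2, settings for which no share of all genes is given. The gene called by DESeq2 was BAG3, an exchange factor of HSP70 induced by HSF1 that directs clients to autophagy (chr10:121410892-121437331 of GRCh37, plus strand). BAG3 ranged from 48.3 to 59.5 CPM (median 55.7) in MEIS1-KO and from 44.8 to 52.6 CPM (median 48.3) in ctrl-KO, and the groups overlapped. Its log2 fold change was 0.19 ± 0.06 (edgeR adjusted p = 0.0997), and DESeq2 gave an adjusted p of 0.0463.

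MEIS2-KO against ctrl-KO had 1 of 36 genes called, BAG3, where 10.0% of all genes were called. BAG3 ranged from 55.5 to 61.3 CPM (median 57.6) in MEIS2-KO, and every one of these libraries lay above the 6 ctrl-KO libraries. The log2 fold change was 0.26 ± 0.06 (edgeR adjusted p = 0.00295), below the fold threshold of 0.58. In MEIS2-KO the 10 neural stem cell markers summed to 5038 to 6122 CPM against 4504 to 4999 CPM in ctrl-KO. The endothelial and blood cell markers summed to 25.2 to 31.1 against 20.6 to 23.4 CPM. The neuron markers went the other way, with 618 to 755 against 754 to 871 CPM. The pluripotency list (545 to 605 against 556 to 665 CPM) and the astrocyte markers (4.18 to 5.70 against 4.30 to 5.71 CPM) overlapped. The part of these markers in the BAG3 result was not tested. Groups without overlap occurred for this gene only among the 36, and for 6.44% of all genes. Both knockouts share the ctrl-KO libraries, so the BAG3 values in them are not independent, and MEIS1-KO against MEIS2-KO gave a log2 fold change of -0.07 ± 0.06 (edgeR adjusted p = 0.887).

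HSPA8, HSP90AA1, DNAJB1, HSPH1, HSF1 and HSPA1B did not pass the threshold in any of these 4 comparisons. For HSPA8 the log2 fold changes were -0.02 in MEIS1-OE, 0.03 in MEIS2-OE, -0.00 in MEIS1-KO and -0.06 in MEIS2-KO, each with an SE of 0.08, and the lowest edgeR adjusted p was 0.70. HSP90AA1, the HSP90 form that stress induces more, had -0.04, 0.03, 0.02 and -0.03, each with an SE of 0.05 (lowest edgeR adjusted p = 0.714). DNAJB1, the HSP40 that heat shock induces, had -0.07, -0.02, -0.01 and 0.00 with an SE of 0.08 in each (lowest edgeR adjusted p = 0.677). These 3 genes overlapped in CPM between the MEIS libraries and their controls. HSPH1, an HSP110, had -0.03, 0.05, -0.03 and -0.07, each with an SE of 0.07 (lowest edgeR adjusted p = 0.58). For HSF1 the values were 0.05, -0.08, 0.17 and 0.23 with SEs of 0.16 in the OE system, 0.17 in MEIS1-KO and 0.16 in MEIS2-KO (lowest edgeR adjusted p = 0.441). With only the groups compared in the fit, HSF1 was called in MEIS2-KO, at 0.25 (edgeR adjusted p = 0.0357). HSPA1B had 0.28 ± 0.11 in MEIS1-OE, -0.09 ± 0.11 in MEIS2-OE, -0.20 ± 0.12 in MEIS1-KO and -0.24 ± 0.12 in MEIS2-KO (lowest edgeR adjusted p = 0.111). HSPA1A had 1 to 5 counts in each condition, for which no fold is given.

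The side of the threshold on which HSPA1B fell depended on the fit. Its MEIS1-OE libraries ranged from 23 to 34.5 CPM (median 28.3), and its ctrl-OE libraries from 20.8 to 28.6 CPM with a median of 22.6. Without MEIS1-OE replicate 3, chosen after the data were seen, the log2 fold change was 0.33 (edgeR adjusted p = 0.038). With the GC index of the library as a covariate, also chosen after the data were seen, it passed with all libraries in MEIS1-OE at 0.24 (edgeR adjusted p = 0.0449) and in MEIS2-KO at -0.34 (edgeR adjusted p = 0.0169).

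MEIS1-OE against MEIS2-OE compares the activated paralogs directly, without the control. 5 of 36 genes were called there, 3 higher and 2 lower in MEIS1-OE, with 7.75% of all genes called, 4.93% higher and 2.82% lower. BAG2 ranged from 10.5 to 12.6 CPM (median 11.6) in MEIS2-OE, and 5 of 6 MEIS1-OE libraries lay above all of them, with a log2 fold change of 0.25 ± 0.07 (edgeR adjusted p = 0.0122). HSPB8 had 11 counts in all in MEIS2-OE and a log2 fold change of 2.15 ± 0.48 (edgeR adjusted p = 0.002). HSPA1B ranged from 14.4 to 26.1 CPM (median 23.9) in MEIS2-OE, overlapping MEIS1-OE, and differed by 0.37 ± 0.11 (edgeR adjusted p = 0.0264). The HSPA1B difference was no longer called when replicate 1, 4 or 5 was left out (lowest adjusted p of these 0.0865) or when only these groups were fitted (0.139). FKBP4, an immunophilin that binds HSP90 with steroid receptors, ranged from 89.3 to 103 CPM (median 91.5) in MEIS1-OE and from 99.9 to 113 (median 108) in MEIS2-OE. The groups overlapped for 1 MEIS1-OE library, and the log2 fold change was -0.20 ± 0.05 (edgeR adjusted p = 0.00691). DNAJB6 ranged from 103 to 109 CPM (median 106) in MEIS1-OE and from 108 to 128 CPM (median 118) in MEIS2-OE, which overlapped, with -0.17 ± 0.04 (edgeR adjusted p = 0.00436). None of the 36 had groups without overlap here, against 4.09% of all genes. BAG2 was not called without replicate 2 (adjusted p = 0.0716) or 6 (0.0546), nor FKBP4 without replicate 5 (0.0657).

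MEIS1-KO against MEIS2-KO had none of the 36 called by edgeR's test or by DESeq2, 1 at an unadjusted p under 0.05 (HSPA13), and 0.0152% of all genes called by edgeR. All 30 genes at 1 CPM or more had log2 fold changes within 0.2 of 0. The MEIS1 contrast, the change under overexpression minus the change under knockout, had none of 36 called by either tool, 6 at an unadjusted p under 0.05, and 3.48% of all genes called by edgeR. HSPA1B had the smallest adjusted p in it, with 0.48 ± 0.16 (edgeR adjusted p = 0.098), followed by BAG2 with 0.30 ± 0.10 (edgeR adjusted p = 0.0997). In the MEIS2 contrast the counts were likewise 0 by both tools, 3 at an unadjusted p under 0.05 and 2.57% of all genes by edgeR. The unadjusted counts of these comparisons also have no share of all genes at that threshold beside them. HSF1 had -0.11 ± 0.23 in the MEIS1 contrast and -0.31 ± 0.23 in the MEIS2 contrast (lowest edgeR adjusted p = 0.544).

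**Figure D2:**
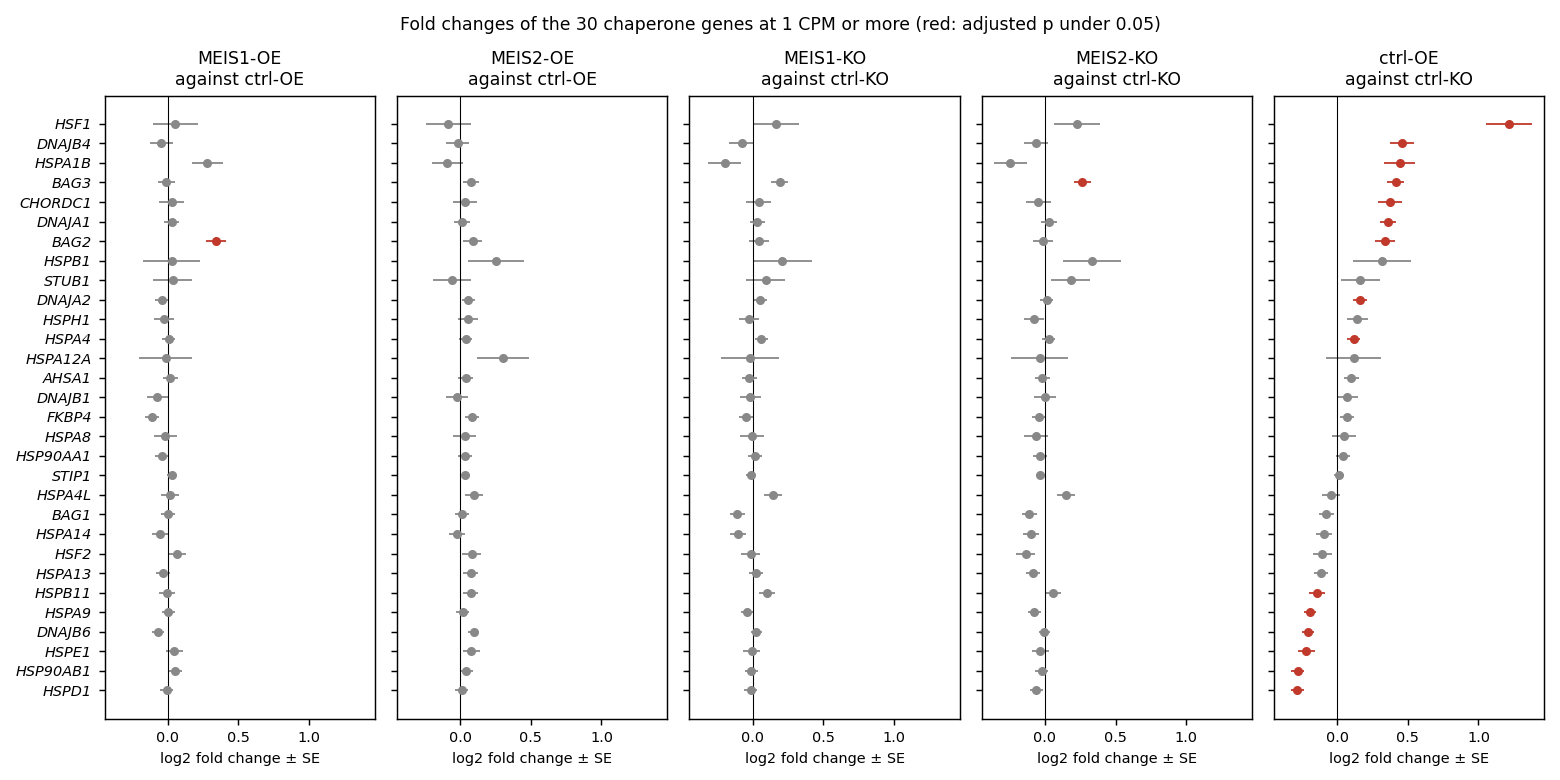
Log2 fold change with its SE (horizontal axis) of the 30 genes at 1 CPM or more (vertical axis, ordered by the rightmost panel) in the 4 MEIS comparisons and in ctrl-OE against ctrl-KO; red points have an edgeR adjusted p under 0.05. BAG2 in MEIS1-OE and BAG3 in MEIS2-KO were the only red points of the first 4 panels, whereas HSF1 reached 1.22 between the controls.

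Most of the differences called in these genes lay between the vector systems. ctrl-OE and ctrl-KO differ in the viruses, and neither targets a MEIS gene, so this comparison sets the 2 delivery systems side by side. 16 of 36 genes (44.4%) were called, 10 higher and 6 lower in ctrl-OE, where 51.4% of all genes were called, 27.5% higher and 23.9% lower. The median log2 fold change was 0.0852 beside 0.0486. With scaling by total counts alone, which moved the median of all genes to 0.195, 19 genes were called, 17 higher and 2 lower, and 12 of the 16 were kept. Of the calls over all genes, 71.2% were higher with that scaling and 53.5% in the main fit. 2 genes passed the fold threshold of 0.58 as well, HSF1 and HSPA2, where 22.1% of all genes did. Groups without overlap were found for 10 of the 36 genes and for 31.8% of all genes.

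HSF1, the main heat shock factor (chr8:145515273-145538383 of GRCh37, plus strand), ranged from 86.6 to 185 CPM (median 116) in ctrl-OE. In ctrl-KO it ranged from 40.6 to 62.7 CPM (median 53.3), so that every ctrl-OE library was above every ctrl-KO library. The log2 fold change was 1.22 ± 0.16 (n = 6 and 6, edgeR adjusted p = 5.69e-08), the largest among the genes at 1 CPM or more. MEIS1-OE and MEIS2-OE, with medians of 136 and 115 CPM, were also above the MEIS1-KO and MEIS2-KO medians of 54.6 and 61.1 CPM. The HSF1 activation domain is encoded by the MPH virus of the OE system, and counts by gene symbol cannot tell reads of that construct from reads of the endogenous gene. RELA, whose activation domain is also in MPH, ranged from 57.4 to 70.0 CPM in ctrl-OE and from 47.5 to 57.3 CPM in ctrl-KO, with a log2 fold change of 0.23 ± 0.07 (edgeR adjusted p = 0.00559). RELA was looked up after the HSF1 values were seen. HSF2, the heat shock factor of development, did not pass, with medians of 59.3 and 63.2 CPM and a log2 fold change of -0.11 ± 0.07 (edgeR adjusted p = 0.185).

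Among the HSP70 genes, HSPA1B was higher in ctrl-OE, from 20.8 to 28.6 CPM against 15.1 to 18.9 CPM in ctrl-KO. No libraries overlapped, and the log2 fold change was 0.44 ± 0.11 (edgeR adjusted p = 0.00105). HSPA8 had 1334 to 1701 CPM in ctrl-OE and 1343 to 1627 CPM in ctrl-KO, which overlapped, with 0.05 ± 0.08 (edgeR adjusted p = 0.679). HSPA2, a testis-enriched HSP70, had 24 counts over the ctrl-OE libraries and 7 over ctrl-KO. Its call was lost with DESeq2 (adjusted p = 0.0594) and with the GC index as a covariate (edgeR adjusted p = 0.0625). It was also lost with only these groups fitted and without replicate 2, 4 or 5. HSPH1 ranged from 174 to 224 CPM and from 168 to 199 CPM, with 0.14 ± 0.07 (edgeR adjusted p = 0.0897), and was called with the replicate number as a block (adjusted p = 0.0246). HSPH1 was also called with the GC index as a covariate, at 0.20 (edgeR adjusted p = 0.00281), and with total counts alone, at 0.29 (edgeR adjusted p = 0.000573). Of its HSP110 relatives, HSPA4 was higher by 0.12 ± 0.05 (edgeR adjusted p = 0.0318), which was lost without replicate 1, 3, 4 or 5, and HSPA4L was not called.

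Of the 5 J-domain proteins, 3 were higher and 1 lower in ctrl-OE. DNAJA1 ranged from 472 to 554 CPM (median 540) in ctrl-OE and from 381 to 440 CPM (median 409) in ctrl-KO, without overlap, and rose by 0.36 ± 0.06 (edgeR adjusted p = 7.39e-07). DNAJB4 ranged from 21.8 to 26.5 CPM (median 25.6) and from 16.7 to 21.3 CPM (median 18), again without overlap, and rose by 0.46 ± 0.08 (edgeR adjusted p = 1.44e-05). DNAJB6 was lower, with 107 to 116 CPM and a median of 110 in ctrl-OE and 123 to 134 CPM and a median of 126 in ctrl-KO, without overlap, and differed by -0.21 ± 0.04 (edgeR adjusted p = 3.07e-05). DNAJB1 had medians of 104 and 97.6 CPM with overlapping ranges, 85.0 to 111 and 83.6 to 111 CPM, and 0.07 ± 0.08 (edgeR adjusted p = 0.46). Both exchange factors BAG3 and BAG2 were higher in ctrl-OE. BAG3 ranged from 60.2 to 67.7 CPM with a median of 64.7 against a highest value of 52.6 CPM in ctrl-KO, and rose by 0.41 ± 0.06 (edgeR adjusted p = 1.57e-07). BAG2 ranged from 9.98 to 12.1 CPM against 7.44 to 10.3 CPM (median 8.65) in ctrl-KO, where 4 of 6 ctrl-OE libraries lay above all ctrl-KO libraries, and rose by 0.34 ± 0.07 (edgeR adjusted p = 0.000103). BAG1 was not called. CHORDC1, an HSP90 cochaperone that HSF1 induces, was the only one of 5 cochaperones called, with 48.3 to 65.1 CPM in ctrl-OE, 39.3 to 48.9 CPM in ctrl-KO, an overlap at the edge, and a log2 fold change of 0.37 ± 0.09 (edgeR adjusted p = 0.000386).

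The mitochondrial chaperones were lower in ctrl-OE, 3 of 3. HSPD1 ranged from 558 to 630 CPM (median 595) in ctrl-OE and from 690 to 774 CPM (median 715) in ctrl-KO, and differed by -0.28 ± 0.05 (edgeR adjusted p = 1.89e-06). HSPE1 (87.4 to 98.8 against 101 to 121 CPM) and HSPA9 (281 to 309 against 322 to 368 CPM) did not overlap either, with log2 fold changes of -0.22 ± 0.06 and -0.19 ± 0.05 (edgeR adjusted p = 0.00235 and 0.000466). With total counts alone HSPE1, HSPA9 and DNAJB6 were no longer called, at -0.07, -0.04 and -0.06, and HSPD1 remained at -0.14. HSPB11 was lower by -0.14 ± 0.05 (edgeR adjusted p = 0.0255), and with total counts alone it was 0.01. Its call was also lost with the GC index as a covariate (adjusted p = 0.09) and without replicate 2 (0.0964) or 5 (0.0885). The HSP90 genes parted: HSP90AB1 ranged from 1708 to 1954 CPM (median 1846) in ctrl-OE and from 2114 to 2430 CPM (median 2161) in ctrl-KO, without overlap, with -0.28 ± 0.05 (edgeR adjusted p = 2.91e-06). HSP90AA1 had 2150 to 2514 CPM and 2162 to 2427 CPM, with 0.04 ± 0.05 (edgeR adjusted p = 0.526). With the GC index as a covariate HSP90AA1 was called higher, at 0.10 (edgeR adjusted p = 0.00545). With total counts alone it was called at 0.19 (edgeR adjusted p = 0.000951), where the median of all genes was 0.195. The remaining called gene was DNAJA2, higher by 0.16 ± 0.05 (edgeR adjusted p = 0.00489).

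The ratio of HSP90AB1 to HSP90AA1 within a library does not depend on scaling between libraries. It was chosen after the values of both genes were seen, so its values are a description with no test. It ranged from 0.746 to 0.807 (median 0.789) in ctrl-OE and from 0.936 to 1.004 (median 0.973) in ctrl-KO, without overlap. The difference on the log2 scale was -0.317. In MEIS1-OE and MEIS2-OE the medians were 0.835 and 0.783, and in MEIS1-KO and MEIS2-KO 0.958 and 0.966, so that each OE library lay below each KO library. The ratio of HSPD1 to HSPE1, which share a divergent promoter, ranged from 6.25 to 6.52 in ctrl-OE and from 6.38 to 6.91 in ctrl-KO, which overlapped, and differed by -0.066.

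**Figure D3:**
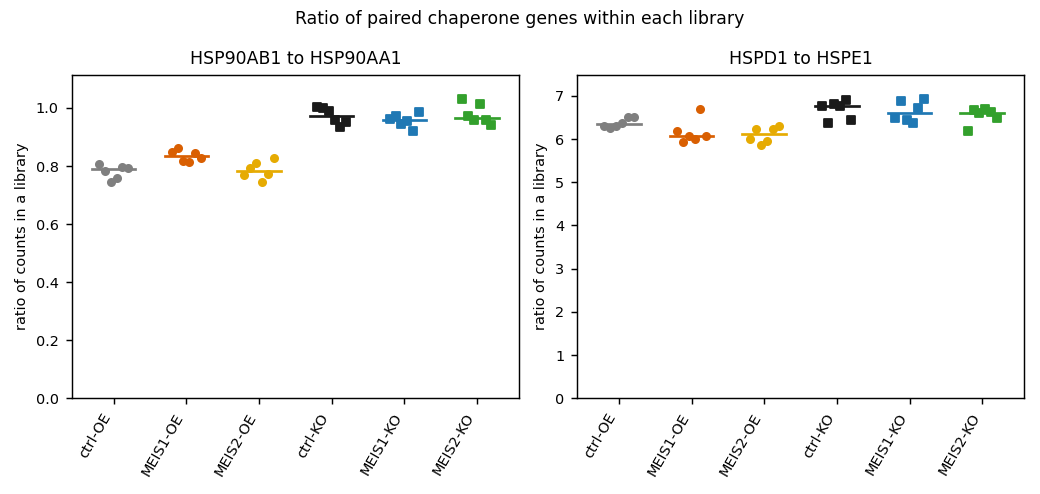
Ratio of counts within each library (vertical axis, linear from 0) of HSP90AB1 to HSP90AA1 and of HSPD1 to HSPE1, by condition (horizontal axis), 1 point per library and a line at the median of 6. The first ratio was at most 0.862 in the OE system and at least 0.919 in the KO system, whereas the second overlapped between systems.

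Marker genes moved between the same controls. The 10 neural stem cell markers summed to 3020 to 3903 CPM in ctrl-OE and 4504 to 4999 CPM in ctrl-KO, with 8 of 10 lower in ctrl-OE, and the 6 neuron markers to 265 to 328 and 754 to 871 CPM, most of it MAP2. The astrocyte markers summed to 2.29 to 2.77 and 4.30 to 5.71 CPM, and 4 of 5 were below 1 CPM. The pluripotency list summed to 398 to 441 and 556 to 665 CPM, from LIN28A and DPPA4. The endothelial and blood cell markers summed to 16.5 to 20.2 and 20.6 to 23.4 CPM, most of it CDH5. The part of cell composition in the chaperone differences was not tested.

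How many genes with a heat shock element in the promoter were called higher or lower between the controls depended on the scaling. Over all genes, 71.2% of the calls were higher with total counts alone, against 53.5% in the main fit. Of the 7 tested genes with 3 units, CHORDC1 and DNAJA1 were higher, HSP90AB1, HSPD1 and DNAJB6 lower, and HSPA8 and HSP90AA1 not called, whereas with total counts alone 4 were higher and 2 lower. Of the 18 tested genes with at least 2 units, 5 were higher, 4 lower and 9 not called, and with total counts alone 9 were higher and 2 lower. Of the 4 genes with TGACAG none was called between the controls, or 2 higher with total counts alone, and 1 of them, HSPB8, was called in MEIS1-OE, as given above.

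95 further genes of the chaperone network in 10 lists of related function, of which 93 were tested, gave the surrounding picture. 50 of 93 (53.8%) were called between the controls, 28 higher and 22 lower in ctrl-OE, beside 51.4% of all genes. The other HSF1 target genes had 3 of 10 higher and 3 lower, with CLU higher by 0.80 and DEDD2 by 0.64. Of the other HSP90 cochaperones, 6 of 11 were higher and 2 lower. ER chaperones had 2 of 15 higher and 8 lower, with DNAJC3 higher by 0.61. The cytosolic chaperonin TRiC had 0 of 8 higher and 3 lower, prefoldin 1 of 6 higher, the other HSP70 cochaperones 3 of 8 higher and 1 lower, and the other J-domain proteins 5 of 15 higher and 2 lower. The other mitochondrial chaperones and proteases had 5 of 10 higher and 1 lower. The remaining HSP70 and small heat shock proteins had 2 of 6 higher and 1 lower, and the HSF family and its regulators 1 of 4 higher and 1 lower. In the MEIS comparisons 1 of 93 was called in MEIS1-OE (HSPBAP1, 0.24 higher), beside 9.10% of all genes. In MEIS2-OE 1 was called (HSF4, 0.98 higher), beside 1.35%. MEIS1-OE against MEIS2-OE had 3 called (3.23%), beside 7.75%, and the MEIS1 contrast 1, beside 3.48%. MEIS1-KO against MEIS2-KO and the MEIS2 contrast had 0. There were 0 in MEIS1-KO, beside 1.46%, and 5 (5.38%) in MEIS2-KO, beside 10.0% of all genes. The 5 in MEIS2-KO were IER5 (0.31), DNAJB2 (0.25) and DNAJB5 (0.18), which were higher, and PTGES3 (-0.21) and FKBP5 (-0.14), which were lower.

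Several chaperone transcripts varied with the replicate number in the labels, across all 6 conditions. The labels do not say what a number stands for, and this comparison was chosen after the data were seen. Beside the 6 conditions, 5 of 36 genes (13.9%) differed by replicate number in edgeR's quasi-likelihood test at an adjusted p under 0.05, where 5.01% of all genes did. DNAJB1 differed most among the 36 (edgeR adjusted p = 3.5e-06). Replicate 2 had the lowest DNAJB1 level of its condition in 6 of 6 conditions, from 80.8 to 90.3 CPM, and replicate 4 the highest in 6 of 6, from 106 to 116 CPM. No replicate 2 library overlapped the replicate 4 libraries.

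CHORDC1 (edgeR adjusted p = 4.29e-05) was above its condition's mean in all 6 conditions in replicates 1 and 4, and below it in all 6 in replicates 2, 3 and 6. For replicate 1 it was 107% to 120% of the mean, and for replicate 6 it was 81.5% to 99.7%. HSPA8 (edgeR adjusted p = 0.000189) ranged from 1557 to 1760 CPM in replicate 1 and from 1466 to 1868 CPM in replicate 4, against 1322 to 1465 CPM in replicate 2. HSPH1 (edgeR adjusted p = 0.0131) was also above the mean in 6 of 6 conditions in replicate 1, and in 5 of 6 in replicate 4. Its call was lost without ctrl-OE (0.0532), MEIS2-OE (0.0788), MEIS1-KO (0.0885) or MEIS2-KO (0.0705). HSPA14, a ribosome-associated HSP70 relative (edgeR adjusted p = 0.0106), had another order, with replicate 3 above the mean in 6 of 6 and replicate 6 lowest in 5 of 6. The HSPA14 call was lost without ctrl-OE (0.0891) or MEIS2-KO (0.0918). In replicate 2, DNAJB1, CHORDC1 and HSPA8 were below the mean in 6 of 6 conditions and HSPH1 in 5 of 6. Of the other HSF1 target genes 3 of 10 differed by number, IER5 (adjusted p = 0.000671), JMJD6 and SERPINH1, against 3 of 15 ER chaperones, 1 of 8 other HSP70 cochaperones, 1 of 10 other mitochondrial chaperones and none of 4 HSF family and regulator genes, 6 other HSP70 and small heat shock proteins, 15 other J-domain proteins, 11 other HSP90 cochaperones, 8 TRiC and 6 prefoldin genes. Among neural stem cell markers NES, VIM and HES1 also differed by number.

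**Figure D4:**
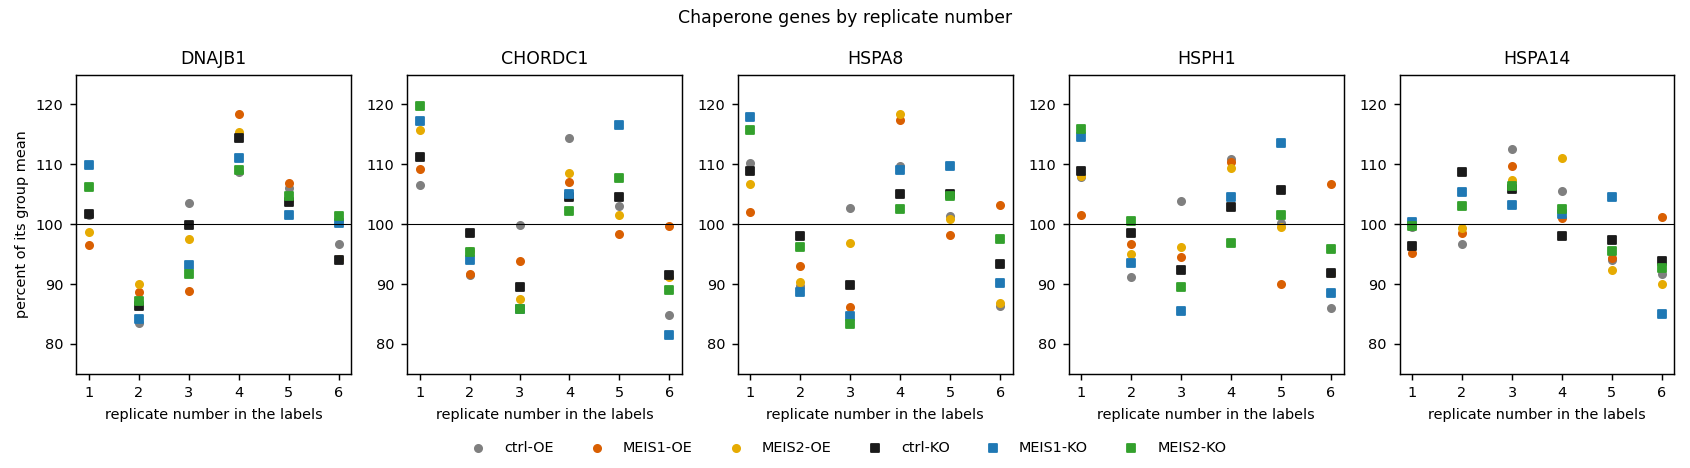
Level of 5 genes as percent of the mean of their condition (vertical axis, not from 0) by replicate number (horizontal axis), with 1 point per library and a colour for each condition. DNAJB1 was lowest in replicate 2 and highest in replicate 4 in all 6 conditions, and CHORDC1, HSPA8 and HSPH1 were above 100 in nearly all replicate 1 and 4 libraries.

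Libraries differed in base composition, and the levels of many chaperone genes moved with it. A GC index was computed for each library as the median log2 deviation of genes with at least 58.5% GC minus that of genes with at most 40.6% GC. It ranged from -0.63 in a ctrl-KO library to 0.556 in a MEIS1-KO library. Medians were 0.066 in ctrl-OE, 0.238 in MEIS1-OE, 0.04 in MEIS2-OE, -0.148 in ctrl-KO, -0.157 in MEIS1-KO and 0.034 in MEIS2-KO. Correlations are given on deviations from the condition means over the 36 libraries, as a description with no test: STUB1, HSPB1 and HSF1 belong by GC content to the high set from which the index is made and HSF2 to the low set, so that their direction was largely fixed by how the index was built. STUB1, the ubiquitin ligase that HSP70 and HSP90 recruit (63.9% GC), had r = 0.967 and rho = 0.941. HSPB1 (65.3% GC) had r = 0.965 and rho = 0.953, and HSF1 (63.9% GC) r = 0.939 and rho = 0.943. HSF2 (39.0% GC) had r = -0.909 and rho = -0.881.

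Without the 2 libraries farthest out, MEIS1-OE replicate 3 and MEIS1-KO replicate 6, r was 0.951 for STUB1, 0.946 for HSPB1, 0.925 for HSF1 and -0.857 for HSF2. DNAJB1 (52.8% GC), which lies in neither set, had r = 0.068 and rho = -0.023. Of other genes in neither set, FKBP4, AHSA1 and STIP1 had r of 0.018, 0.108 and 0.255. Several in neither set did move with the index. HSPA4 (42.4% GC) had r = -0.814, HSP90AA1 (41.6% GC) -0.801 and HSPD1 (41.7% GC) -0.783. Their GC content lies close to the limit of the low set, 40.6%. HSP90AB1 (47.2% GC) had -0.686 and BAG3 (56.9% GC, close to the limit of the high set) had 0.651. HSPA1B (58.8% GC), whose calls changed with the index as a covariate, belongs to the high set and had r = 0.496. The index and the gene levels come from the same libraries. With the index as a covariate, chosen after the data were seen, HSF1 between the controls was 0.91 (edgeR adjusted p = 3.87e-18), and the 5 genes that differed by replicate number still did, DNAJB1 with an adjusted p of 4.08e-09, where 7.94% of all genes did. With it HSPB1, a small heat shock protein, was higher in MEIS2-OE than in ctrl-OE by 0.34 (edgeR adjusted p = 5.9e-05), against 0.25 ± 0.20 and an adjusted p of 0.93 without it.

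**Figure D5:**
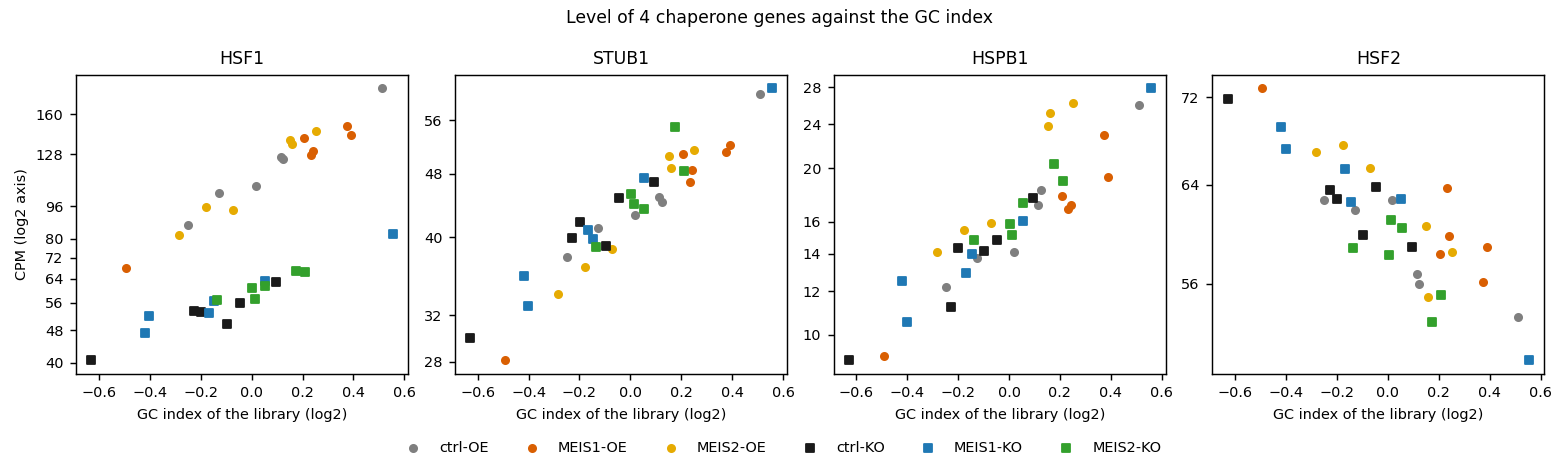
Level in CPM (vertical axis, log2 scale) of HSF1, STUB1, HSPB1 and HSF2 against the GC index of the library (horizontal axis, log2 units), 1 point per library. STUB1, HSPB1 and HSF1 rose and HSF2 fell along the index, and the HSF1 points formed 2 lines, with the OE system above the KO system at the same index.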

How the data were processed

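RNA-seq was performed on 36 libraries from transduced human neural stem cells, 6 per condition, as polyA-selected stranded paired-end libraries of 100 bases. Per the study's methods, the authors mapped reads with STAR to the hg19 build (GRCh37) and counted per gene by HTSeq. The submitters' processing notes name Trimmomatic 0.39 and STAR 2.7.0a. The study's methods name another version of STAR, so the version behind the deposited counts is uncertain. The deposited values are whole-number counts per gene symbol, not normalized, and the annotation and strand setting are not given in the sources used here, so overlapping and antisense genes may not be separated. The members and lists were chosen with earlier results of these data known.

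Counts were analysed in R 4.3.3 with edgeR's quasi-likelihood F test (version 4.0.16, limma 3.58.1), TMM scaling, 1 fit of the 6 groups, and the 19689 genes whose counts summed to 10 or more. P-values were adjusted by Benjamini-Hochberg over all genes tested, and an adjusted p under 0.05 was called. A fold threshold of 0.58 (log2) is given beside it. Levels are CPM on TMM-scaled library sizes. Full statistics were given for called members, at most the 8 with the smallest adjusted p in a comparison, and for HSF1, HSPA1A, HSPA1B, HSPA8, HSP90AA1, DNAJB1 and HSPH1. Of a related list, up to 3 called genes were named. Any other gene named was chosen after its values were seen. The fit was tested on simulated data. DESeq2 1.42.0 and other scalings, filters, prior counts, the replicate number as a block and leaving out each replicate were alternatives. Between same-numbered libraries, 16 of 90 pairs correlated above 0.1 (mean 0.0361, against -0.00732 for other pairs). The main fit did not pair samples by number. However, 5.01% of all genes differed by replicate number in edgeR's test, so an effect shared by number remained in the spread of the main fit. Transcript lengths, GC content and positions came from a GRCh37 annotation, and GC content was known for 84.8% of the genes tested. Python 3.11.15, scipy 1.17.1 and matplotlib 3.10.9 were used for correlations and plots. A planned comparison of protein sequences was not run. Some results are not reported here. Counting error at 15429985 to 22940493 counts per library limits genes with a few counts.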

Additional observations from a re-analysis of the deposited data

Results flagged for a closer look

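Of 186 groups of 6 libraries checked for 1 library far from the other 5 (Dixon's test), 12 were found, where chance gives about 1 in 20. MEIS1-OE replicate 3 accounted for 6 of them. It had 67.79 CPM of HSF1 against 127.8 to 149.7 CPM in the other 5 libraries, 28.13 CPM of STUB1 against 46.88 to 52.08 CPM, and 341.2 CPM of STIP1 against 385.5 to 402.7 CPM. The same library had 58.73 CPM of HSPA4L against 46.87 to 50.64 CPM and 57.07 CPM of HSPB11 against 46.22 to 50.18 CPM. Its GC index was -0.493, against 0.206 to 0.39 in the others of its condition.

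MEIS1-KO replicate 6 accounted for 3, with 27.91 CPM of HSPB1 against 10.57 to 16.09 CPM, 50.54 CPM of HSF2 against 62.56 to 69.16 CPM, and 59.06 CPM of HSPA14 against 69.75 to 73.26 CPM. In ctrl-OE, replicate 6 had 60.39 CPM of STUB1 against 37.84 to 44.96 CPM and 21.8 CPM of DNAJB4 against 25.16 to 26.46 CPM. In ctrl-KO, replicate 2 had 59.23 CPM of HSPA4L against 48.85 to 51.63 CPM. The part of base composition in these values was not tested.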

How the results depend on the processing

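With a fold threshold as well, 1 gene was called in MEIS1-OE, 0 in MEIS2-KO, 2 between the controls and 1 in MEIS1-OE against MEIS2-OE. With the GC index as a covariate there were 4 in MEIS1-OE, 1 in MEIS2-OE, 3 in MEIS1-KO, 4 in MEIS2-KO, 3 in the MEIS1 contrast and 1 in the MEIS2 contrast, where HSPB1 turned from below 0 to 0.33 (adjusted p = 0.0195), and 7 in MEIS1-OE against MEIS2-OE, with BAG3 and HSPB1 added. Between the controls the covariate added HSP90AA1 and HSPH1 and dropped HSPA2 and HSPB11. Calls over all genes rose as well with the index, from 1791 to 3301 in MEIS1-OE, 266 to 532 in MEIS2-OE, 287 to 878 in MEIS1-KO and 1974 to 2554 in MEIS2-KO. Between the controls they rose from 10120 to 11052. filterByExpr left 1 in MEIS1-OE, since HSPB8 was not tested, and DESeq2 gave 1 in MEIS1-KO. Fitting only the groups compared gave 3 in MEIS2-KO (HSF1 and HSPA4L added) and 1 in the MEIS1 contrast, and leaving out MEIS1-OE replicate 3 gave 1 in MEIS1-KO and 1 in the MEIS1 contrast. With total counts only, HSPB11 between the controls turned to 0.0062. The cause of these shifts was not tested. Leaving out each replicate gave 2 to 3 genes in MEIS1-OE, 13 to 17 between the controls, 3 to 6 in MEIS1-OE against MEIS2-OE (3 without replicate 5), 1 in MEIS2-KO and 0 in the other comparisons. The replicate number as a block gave 2 in MEIS1-OE, 1 in MEIS2-KO, 17 between the controls, 5 in MEIS1-OE against MEIS2-OE and 0 elsewhere. Differences by replicate number were called for 3 genes without ctrl-OE (1.47% of all genes), 8 without MEIS1-OE (7.61%), 8 without ctrl-KO (7.21%) and 3 without MEIS2-KO (1.49%), with DNAJB1, CHORDC1 and HSPA8 in each. Of 5104 values under alternatives, 330 had the opposite sign. At this depth, genes with a few counts (HSPA1A, HSPA2, HSPA6, HSPB2) could not be compared closely, and the size of the HSPB8 fold depended on the prior count (2.39 or 1.57).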
